A study of Ovis aries with 20 samples.

Results

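The adipocyte genes followed here are FABP4, PLIN1, PLIN4, ADIPOQ, PPARG, LPL, CIDEC and LIPE, 8 of the 24478 genes in RNA sequencing count tables of sheep trachea. They were picked by name as genes of fat cells, with earlier results of these data known. All 8 were present and had enough counts to be tested, among 20097 genes tested. The samples came from normal (WT) sheep and from sheep with cystic fibrosis (CF), in which the chloride channel CFTR fails, at days 65, 80, 100, 120 and 147, the last being birth. Each of the 10 groups of genotype and age held 2 samples, 20 in all, and no treatment is named. The sources used here do not give the CF alleles of the animals. The tissue is labelled tracheal epithelium, and its epithelial marker EPCAM was present in every library, at 58.3 to 305 CPM. Genes of the deeper wall were present too: the cartilage collagen COL2A1 stood at 59.9 to 3307 CPM and the connective tissue collagen COL1A1 at 599 to 18480 CPM. CPM are counts scaled to a fixed total per library after TMM normalisation.

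Fat cells store triglyceride in a lipid droplet, release it as fatty acids when energy is needed, and secrete hormones. Their fate is set by the nuclear receptor PPARG, which switches on genes for fatty acid uptake, droplet coating and lipolysis. Mature fat cells are known by ADIPOQ, a secreted hormone, and by PLIN1, the coat of the large droplet. In sheep, much of the fat laid down before birth is brown fat, which makes heat through UCP1, and fat lies in the loose tissue around the tracheal rings.

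Some libraries stood apart, and this touches the values below. Total counts ran from 42372433 to 87651829 per library. Skeletal muscle genes were high in CF day 80 replicate 1 and, less so, in WT day 65 replicate 2, thymus genes in WT day 65 replicate 2 and, alongside thyroid genes, WT day 80 replicate 2, and liver genes in CF day 65 replicate 2. One sample identifier stands on both WT day 100 libraries, and another on both CF day 147 libraries, which may then be 1 animal each. A shared identifier also stands on WT day 65 replicate 2 and CF day 100 replicate 2, which differ in genotype and age by their titles. Nothing else shows that replicates are separate animals, so p-values measure only how far these samples spread, and that spread may be technical. In tissue samples of this kind, fewer cells of a type and less RNA per cell cannot be told apart.

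The 8 genes together were scarce until day 100 and abundant in some libraries from day 120 on. Their summed level ran from 14.7 to 138 CPM in the 8 libraries of days 65 and 80, with a median of 30.2 CPM, and from 6.22 to 71.0 CPM in the 4 of day 100. At day 120 it was 2494 and 129 CPM for WT and 1554 and 556 CPM for CF, replicate 1 first. At birth it was 5277 and 212 CPM for WT and 229 and 2551 CPM for CF. Each late group thus held a library rich in these genes and a poorer partner, and the poorer partner at WT day 120 lay below the richest early library.

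**Figure D1:**
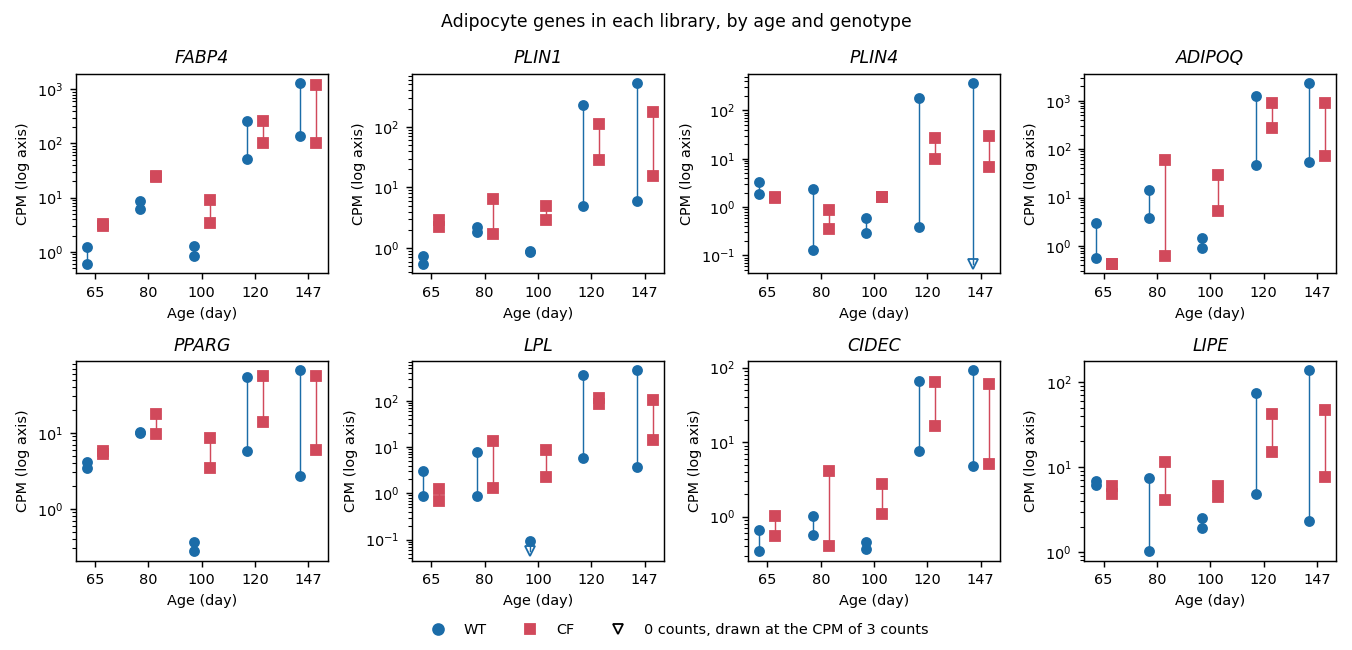
Level of each of the 8 adipocyte genes in every library, in CPM on a log axis, against age in days, with WT as blue circles and CF as red squares and a line joining the 2 libraries of a group. Open triangles mark libraries with 0 counts, drawn at the CPM of 3 counts. Libraries of days 120 and 147 reach far higher than those of days 65 to 100, and the partners of a late group lie far apart, as for ADIPOQ at WT birth, 2337 and 55.2 CPM.

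PPARG, the transcription factor that drives fat cell formation, ran from 3.41 to 17.6 CPM over the 8 early libraries (days 65 and 80), with a median of 7.65 CPM. At day 100 it was at 0.369 and 0.274 CPM for WT and 3.44 and 8.52 CPM for CF. At day 120 it was at 53.9 and 5.71 CPM for WT and 56.1 and 13.8 CPM for CF, and at birth at 66.0 and 2.70 CPM for WT and 5.91 and 55.8 CPM for CF. Only the richer library of each late group stood above all early libraries, 4 of the 8 late ones, and both WT day 100 libraries stood below all others. No other member had so few late libraries above its early range. The gene is counted over 130 exon parts, and some of its reads may not be its own.

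ADIPOQ, the hormone adiponectin, made almost only by fat cells, ran from 0.419 to 58.9 CPM in the early libraries, with a median of 1.81 CPM. Its highest early value came from CF day 80 replicate 1, the library with skeletal muscle, against 0.624 CPM in its partner. At day 100 it was at 0.887 and 1.45 CPM for WT and 5.29 and 29.4 CPM for CF. At day 120 it reached 1277 and 47.6 CPM for WT and 900 and 270 CPM for CF, and at birth 2337 and 55.2 CPM for WT and 72.4 and 903 CPM for CF. Of the 8 late libraries, 6 stood above every early one.

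The fatty acid uptake genes followed the same course. LPL, the lipase that frees fatty acids from blood lipoproteins at the capillary wall, ran from 0.681 to 13.7 CPM early, with a median of 1.26 CPM. At day 100 LPL was at 0 counts in WT replicate 1, where 3 counts would be 0.0554 CPM, at 0.0912 CPM for WT replicate 2 and at 2.30 and 8.76 CPM for CF. LPL then stood at 360 and 5.91 CPM for WT and 114 and 83.8 CPM for CF at day 120, and at 453 and 3.62 CPM for WT and 14.4 and 103 CPM for CF at birth. The poorer WT libraries of both late ages fell within the early range, and CF day 147 replicate 1 lay just above it. FABP4, which carries fatty acids inside the fat cell and is also made by capillary endothelium and macrophages, ran from 0.596 to 24.7 CPM early, with a median of 4.68 CPM. At day 100 FABP4 was at 0.850 and 1.31 CPM for WT and 3.42 and 8.99 CPM for CF, and at day 120 at 255 and 52.1 CPM for WT and 254 and 100 CPM for CF. At birth FABP4 was at 1300 and 138 CPM for WT and 102 and 1176 CPM for CF. Every late library exceeded every early one in FABP4.

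The lipid droplet genes reached their highest levels in the same libraries. PLIN1, which guards the droplet of mature fat cells against lipases, ran from 0.545 to 6.50 CPM early, with a median of 2.02 CPM, and from 0.850 to 4.93 CPM at day 100. PLIN1 was at 230 and 4.94 CPM for WT and 113 and 28.8 CPM for CF at day 120, and at 525 and 5.88 CPM for WT and 15.2 and 177 CPM for CF at birth. The 2 poorer WT libraries did not leave the early range of PLIN1, and the other 6 late libraries did. CIDEC, which fuses droplets into large ones, ran from 0.341 to 4.16 CPM early, with a median of 0.623 CPM, and from 0.365 to 2.71 CPM at day 100. CIDEC was at 66.5 and 7.57 CPM for WT and 64.6 and 16.3 CPM for CF at day 120, and at 91.5 and 4.73 CPM for WT and 5.12 and 59.4 CPM for CF at birth. Its groups did not overlap, though 2 of the birth libraries stood only a little above the highest early one. PLIN4, a coat protein of nascent droplets that is also made in muscle, ran from 0.128 to 3.27 CPM early, with a median of 1.58 CPM, and from 0.295 to 1.61 CPM at day 100. PLIN4 was at 177 and 0.396 CPM for WT and 9.94 and 27.3 CPM for CF at day 120, and at 368 CPM and 0 counts in WT and 6.80 and 29.9 CPM for CF at birth. In PLIN4 alone of the 8, the library poorer in the other 7 genes was the higher one at CF day 120. No PLIN4 count in WT day 147 replicate 2 allows up to 0.0663 CPM, the level of 3 counts there, which covers counting error only.

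LIPE, hormone-sensitive lipase, which breaks down the stored fat, ran from 1.02 to 11.4 CPM early, with a median of 6.12 CPM, and from 1.93 to 6.06 CPM at day 100. At day 120 LIPE was at 75.2 and 4.88 CPM for WT and 41.8 and 14.9 CPM for CF, and at birth at 136 and 2.32 CPM for WT and 7.59 and 46.5 CPM for CF. Of the late libraries 5 lay above the early range of LIPE, 3 within it.

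Per kilobase of summed exon length, FABP4 was the most abundant member in the late libraries at 1058 ± 1278 CPM per kb (SD, n = 8), followed by ADIPOQ at 215 ± 235 and LPL at 87.5 ± 105. PLIN1 stood at 39.6 ± 51.4 CPM per kb, CIDEC at 24.4 ± 21.4, PLIN4 at 19.6 ± 33.2, LIPE at 18.7 ± 20.9 and PPARG at 1.92 ± 1.63. Neighbours in this order differed by less than their spread over libraries, which does not measure the order within a library. Within each late library, FABP4 exceeded ADIPOQ on this scale, by 1.71 to 21.3 times, and LPL stood at 0.138 to 0.650 of ADIPOQ. FABP4 is short, 399 bases in the tables, and PPARG long at 16960, so the scale itself is sensitive to their gene models. The genes lie on 7 chromosomes in the coordinates of the count tables, with no build named: FABP4 on chromosome 9 from 57396171 to 57400688, ADIPOQ on chromosome 1 from 198460186 to 198473290, PLIN1 on chromosome 18 from 20174003 to 20188015 and PLIN4 on chromosome 5 from 17131002 to 17139777. LPL lies on chromosome 2 from 45695792 to 45719765 and LIPE on chromosome 14 from 49837554 to 49854972, while PPARG (56520098 to 56689727) and CIDEC (16796880 to 16805948) are both on chromosome 19, far apart.

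To ask whether fat cell genes come up toward birth, the 8 late libraries (days 120 and 147) were compared with the 8 early ones (days 65 and 80), each of the 4 groups on a side counting equally. All 8 genes rose, where 11.5% of all genes tested were called higher and 24.2% in either direction. Because the 8 were chosen with earlier results of these data known, their number is no independent test. Their median log2 fold change was 5.44, against -0.02 over all genes. ADIPOQ rose most, by 7.52 ± 1.26 on the log2 scale (SE, adjusted p = 0.00100, quasi-likelihood test in edgeR, adjusted after Benjamini and Hochberg). FABP4 rose by 6.13 ± 0.68 (adjusted p = 5.1e-05, edgeR), PLIN1 by 5.97 ± 1.00 (adjusted p = 0.00099, edgeR), LPL by 5.49 ± 1.12 (adjusted p = 0.0035, edgeR) and CIDEC by 5.40 ± 0.85 (adjusted p = 0.00062, edgeR). These 5 genes passed whichever library was left out and under all 7 other settings tried.

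PLIN4 rose by 5.20 ± 1.31 (adjusted p = 0.012, edgeR), LIPE by 2.70 ± 0.77 (adjusted p = 0.022, edgeR) and PPARG by 2.15 ± 0.66 (adjusted p = 0.031, edgeR), and these 3 calls were less secure. PLIN4 passed in 15 of 20 fits with 1 library left out. Without WT day 147 replicate 1, WT birth held no PLIN4 count, and the fitted 1.08, with an SE of 30.6, is no usable estimate. PLIN4 was at 3.25 without WT day 120 replicate 1, and at 5.11 to 5.21 without WT day 65 replicate 1 or either CF day 65 library. LIPE passed in 12 of 20, losing the call at 1.48 to 2.74 without WT day 65 replicate 1 or 2, WT day 120 replicate 1, WT day 147 replicate 1, CF day 65 replicate 1 or 2, CF day 80 replicate 2 or CF day 147 replicate 2. PPARG passed in 8 of 20, which were the fits without a day 100 library or without the poorer library of a late group, and stood at 1.23 to 2.30 in the others, lowest without WT day 147 replicate 1. All 4 libraries holding other tissue were early ones, and leaving them out left 1 library in each early group. In that fit PLIN4 (6.34), LIPE (3.50) and PPARG (2.30) kept their direction but not their calls.

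By library rather than by mean, 2 of 8 genes, FABP4 and CIDEC, had all 8 late libraries above all 8 early ones, against 2.27% of all genes. Within WT this held for 4 of 8 genes (5.34% of all genes) and within CF for 6 of 8 (9.41%). Between days 100 and 120, which were not compared in a fit, FABP4, PLIN1, ADIPOQ and CIDEC had all 4 libraries of day 120 above all 4 of day 100, 4 of 8 genes against 2.41% of all genes. For PLIN1 the nearest libraries were level, at 4.94 and 4.93 CPM, and PLIN4, PPARG, LPL and LIPE each had 3 of 4 day 120 libraries above those of day 100. No member had all libraries of day 100 above those of day 80, where 6.38% of all genes did, or all of birth above those of day 120, where 1.46% did.

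**Figure D2:**
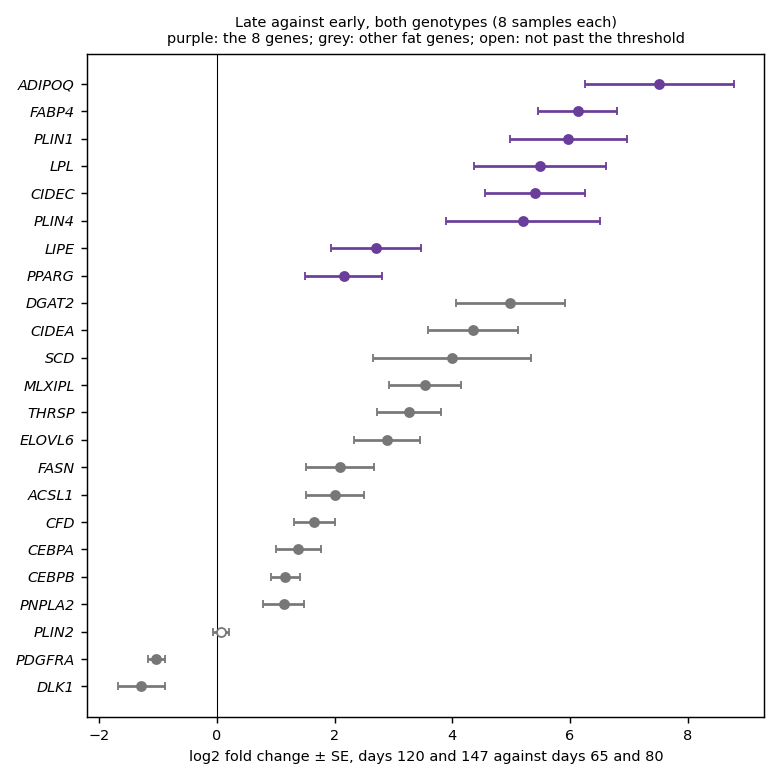
Log2 fold change of late (days 120 and 147) against early (days 65 and 80) libraries, 8 each, with its SE, for the 8 adipocyte genes in purple and other genes of fat in grey, an open point marking PLIN2, which did not pass. ADIPOQ lies highest at 7.52 and PPARG lowest of the 8 at 2.15, while DLK1 and PDGFRA lie below 0.

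Within a genotype the question was asked of birth against day 65, 2 libraries a side. In WT, 3 of 8 genes rose, where 3.7% of all genes were called higher and 8.23% either way: FABP4 by 9.64 ± 1.57 log2 (adjusted p = 0.0032, edgeR), PLIN1 by 8.69 ± 2.26 (adjusted p = 0.033, edgeR) and CIDEC by 6.55 ± 1.79 (adjusted p = 0.041, edgeR). FABP4 went from 0.596 and 1.22 CPM at day 65 to 1300 and 138 CPM at birth, and ADIPOQ from 0.558 and 3.01 to 2337 and 55.2 CPM, at 9.40 ± 2.72 log2 (adjusted p = 0.052, edgeR). The other 4 had log2 fold changes of 3.19 for PPARG to 6.88 for LPL. Without WT day 147 replicate 1, ADIPOQ was at 4.97, LPL at 0.91, PLIN1 at 3.19, CIDEC at 3.20, PPARG at -0.49 and LIPE at -1.49, and PLIN4 was left with no count at birth. The count was 0 without WT day 65 replicate 1, 1 without WT day 65 replicate 2, WT day 100 replicate 1, WT day 147 replicate 1 or either CF day 100 library, 0 without the 4 libraries holding other tissue, which leaves 1 library at day 65, and 8 by DESeq2. At an unadjusted p under 0.05 it was 7.

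In CF, 1 of 8 genes rose, FABP4, by 7.66 ± 1.44 log2 (adjusted p = 0.0076, edgeR), where 1.78% of all genes were called higher and 5.49% either way. FABP4 went from 3.02 and 3.30 CPM to 102 and 1176 CPM. ADIPOQ, from 0.426 and 0.419 CPM to 72.4 and 903 CPM, was at 10.17 ± 2.82 log2 (adjusted p = 0.056, edgeR). The other 6 lay between 2.31 (LIPE) and 5.94 (LPL), and DESeq2 called 5 genes. Without the 4 libraries holding other tissue 0 of 8 passed in CF, 3 at an unadjusted p under 0.05, but day 65 then holds 1 library, assumed to vary like the other groups. FABP4 lost its call without CF day 147 replicate 2 (5.02 log2) or either CF day 65 library (7.60 and 7.72). The difference between the genotypes' developments was called for 0 of 8 genes by edgeR, with 0 at an unadjusted p under 0.05 and 0 by DESeq2 (0.00498% of all genes were called), from -3.47 ± 2.40 log2 for PLIN1 to 0.76 ± 2.76 for ADIPOQ.

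From day 120 to birth 0 of 8 genes passed in edgeR, 1 at an unadjusted p under 0.05 and 0 by DESeq2, against 0.134% of all genes called. FABP4 was the one, at 2.04 ± 0.79 log2 (adjusted p = 0.56, edgeR). The other 7 stood between -0.22 ± 1.30 (LPL) and 0.81 ± 1.14 (PLIN1), and with SEs of this size a 2-fold step was not detectable. FABP4 per ADIPOQ, both per kb, was 1.71 to 9.36 in the 4 libraries of day 120 and 4.76 to 21.3 in the 4 of birth.

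CF was compared with WT because the study asks about early deficits of CF airways. Over the mean of the ages 0 of 8 genes passed in edgeR, 1 at an unadjusted p under 0.05 and 0 by DESeq2, against 0.766% of all genes called. FABP4 was at 170 ± 362 CPM for CF and 176 ± 404 CPM for WT (SD, n = 10 each), yet at 1.22 ± 0.50 log2 higher in CF in the fit, in which each age counts equally (adjusted p = 0.37, edgeR). By library, FABP4 was at 3.02 and 3.30 CPM for CF against 0.596 and 1.22 CPM for WT at day 65. It was at 24.7 and 24.5 against 8.87 and 6.06 CPM at day 80, and 3.42 and 8.99 against 0.850 and 1.31 CPM at day 100. At day 120 and birth the genotypes overlapped. These are 2 libraries a side, and the share of all genes with such a gap was not computed. CF day 80 replicate 1 is the library with skeletal muscle, and the WT day 100 libraries share an identifier. PPARG was at 1.06 ± 0.58 log2 and PLIN4 at -1.09 ± 1.01, and the median of the 8 was 0.65 against 0.01 over all genes. At birth alone 0 of 8 genes passed in edgeR, 0 at an unadjusted p under 0.05 and 0 by DESeq2 (0.0945% of all genes were called), with values from -3.32 ± 2.37 for PLIN4 to -0.16 ± 1.26 for PPARG. A test for a difference at any age called 0 of 8 in edgeR, 0 at an unadjusted p under 0.05 and 0 by DESeq2, against 0.209% of all genes.

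In every group but CF day 65 the partners differed more in these genes than in the median gene. The gap was widest at WT day 120, WT birth and CF birth. The higher library had a median of 21.1 times the CPM of its partner over the 8 genes at WT day 120, 42.3 times at WT birth over the 7 with over 3 counts in both, 3.07 times at CF day 120 and 10.5 times at CF birth. Over all genes the median difference between partners of those groups was 0.35 to 0.87 on the log2 scale, against 1.61 to 5.63 for the 8 genes. All 8 genes were higher in the same library at WT day 120, WT birth and CF birth, and 7 of 8 at CF day 120. The 2 CF birth libraries share an identifier, so the 10.5-fold gap there may lie within 1 animal. The median gap was 1.88 times in WT and 1.16 times in CF at day 65, 2.77 and 3.32 times at day 80, and 1.35 and 2.48 times at day 100. CF day 80 thus exceeded CF day 120, and all 8 genes were higher in its replicate 1, the library with skeletal muscle. At CF day 100 all 8 genes were higher in replicate 2, with a median difference of 1.29 log2 against 0.20 over all genes.

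Markers of other cell types moved with that difference. Against its partner, the library rich in adipocyte genes had summed cartilage markers (9 genes, ACAN and COL2A1 among them) at 2970 against 715 CPM at WT day 120, 3929 against 1383 at WT birth, 1470 against 562 at CF day 120, but 1845 against 2606 at CF birth. Its 9 endothelial markers summed to 632 against 351, 833 against 327, 759 against 499 and 833 against 324 CPM in the same order. Its 6 smooth muscle markers were lower in each pair, at 733 against 2799, 833 against 2352, 894 against 1040 and 639 against 1288 CPM. Its 9 epithelial markers stood at 2406 against 3987, 2000 against 4150, 2904 against 2566 and 2854 against 2920 CPM. All markers of these 4 lists had counts in these libraries, and their part in the result was not tested. Over the ages, cartilage markers ran from 345 to 1183 CPM early and from 562 to 3929 CPM late, and endothelial markers from 653 to 1719 CPM early and from 324 to 833 CPM late.

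A library property is set beside ratios between members here. The slope of log2 CPM on log2 gene length, a measure of how far a library favours long over short genes, was below 0 in 9 libraries, lowest at -0.24 in WT day 147 replicate 2. PLIN4 per PLIN1, both per kb, was 0.0616 to 0.579 in the 8 of these libraries with PLIN4 counts and 0.288 to 3.88 in the 11 with a slope above 0. LPL per ADIPOQ was 0.132 to 4.33 (median 0.250) in the former and 0.407 to 6.21 (median 0.911) in the latter. The ranges of both ratios thus overlapped. PLIN4 (3947 bases) and PLIN1 (3473) are close in length, while LPL (1626) is shorter than ADIPOQ (3412). The shorter gene of that pair was thus lower, by median, in libraries that favour short genes. Age enters this contrast: every day 65 library had a slope above 0, and the median LPL per ADIPOQ was 3.35 early and 0.336 late. Among the late libraries alone it was 0.138 to 0.266 with a slope below 0 and 0.407 to 0.650 with a slope above 0. With the slope as a covariate, a setting added after the data were seen, all 8 genes still passed late against early, and PLIN4 went from -1.09 to 0.10 log2 in CF against WT over the ages. The part of this property in the levels of PLIN4 and LPL was not tested further.

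**Figure D3:**
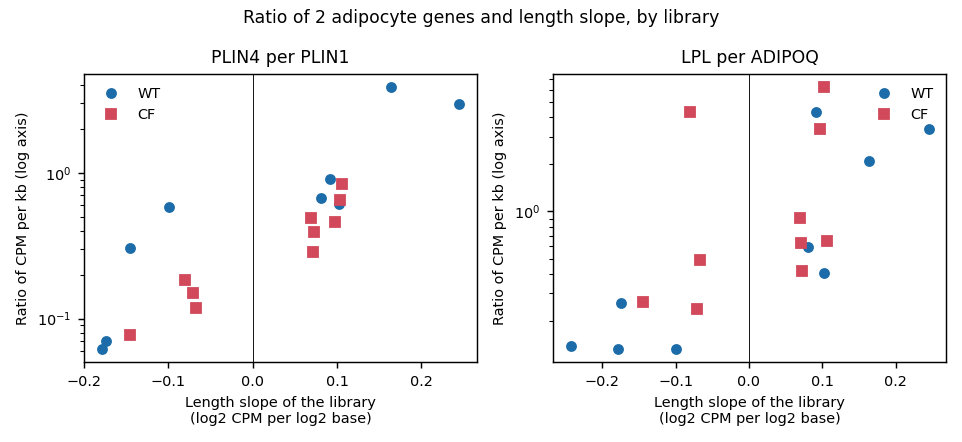
Ratio of PLIN4 to PLIN1 (left) and of LPL to ADIPOQ (right), in CPM per kb on a log axis, against the length slope of each library, with WT as blue circles and CF as red squares. One library without PLIN4 counts and one without LPL counts are left out. PLIN4 per PLIN1 stays at or below 0.579 left of 0 and reaches 3.88 right of it.

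The wider set of fat genes is given from lists of adipocyte function, late against early, by the same edgeR test. Over all genes tested, 11.5% were called higher and 24.2% either way in this comparison, which is the background for each list. Like the members, the lists were chosen with earlier results of these data known. Most genes named from the lists were picked because they passed, so their number is no result. Of 42 named genes that passed, 30 did so whichever library was left out and 22 under every other setting. Of 20 other adipocyte genes tested, 13 rose and 1 fell, with a median of 1.93 log2 against -0.02 over all genes. LGALS12, a galectin of the lipid droplet, rose by 2.19 ± 0.27, THRSP, a driver of fatty acid synthesis, by 3.27 ± 0.54, ADIG, a small adipocyte protein, by 2.34 ± 0.41, and CFD, complement factor D or adipsin, by 1.66 ± 0.35 log2. LEP, the satiety hormone leptin, had 0 counts in both CF libraries of day 65 and rose late against early, by 53.8-fold when averaged over the groups on the log scale with that group set to 3 counts. The fitted log2 fold change ran from 5.45 to 8.30 with 1 library left out. Its levels were 8.24 and 0.432 CPM for WT and 3.77 and 1.16 CPM for CF at day 120, and 10.6 and 0.309 CPM for WT and 0.422 and 5.50 CPM for CF at birth, and at most 0.601 CPM earlier, a level that the poorer WT libraries of both late ages and the poorer CF birth library did not exceed. FNDC5, best known from muscle, fell by 1.93 ± 0.31 log2, and stood at 107 CPM for CF day 80 replicate 1. PLIN2, a droplet coat found in most cells, was at 0.07 ± 0.13 log2 (adjusted p = 0.77, edgeR) and between 15.8 and 29.1 CPM in all 20 libraries.

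Genes of fatty acid and triglyceride synthesis came up with the adipocyte genes: 11 of 13 rose and 0 fell, median 1.71 log2. DGAT2, which adds the last fatty acid to triglyceride, ran from 2.77 to 28.8 CPM early and from 13.0 to 579 CPM late and rose by 4.99 ± 0.93 log2. ELOVL6, a fatty acid elongase, rose by 2.89 ± 0.57, BSCL2, the droplet assembly protein seipin, by 0.69 ± 0.09 and MOGAT1 by 1.52 ± 0.25. FASN, fatty acid synthase, rose by 2.09 ± 0.58, reaching 2234 CPM for WT day 120 replicate 1, and passed in 16 of 20 fits with 1 library left out, not without WT day 65 replicate 2, WT day 120 replicate 1, WT day 147 replicate 1 or CF day 65 replicate 1 (1.15 to 2.36 over all 20). SCD, the desaturase that makes oleate, rose by 4.0 ± 1.34 but passed in only 3 of 20 such fits, those without WT day 80, 120 or 147 replicate 2, at 1.38 to 5.31 log2. It was at 842 and 0.666 CPM for WT at day 120 and at 883 and 0.309 CPM for WT at birth. SCD per FASN was 0.00893 to 0.765 in libraries with a length slope below 0 and 0.277 to 2.91 in the rest.

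Lipolysis genes rose in 5 of 7 cases and fell in 0, median 1.26 log2 against -0.02 over all genes. The beta-adrenergic receptor ADRB1, through which noradrenaline starts lipolysis, rose by 2.58 ± 0.30, PNPLA3 by 4.05 ± 1.02, and PNPLA2, the first lipase of the pathway, by 1.14 ± 0.35 log2. PNPLA3 lost its call without WT day 147 replicate 1 (2.23 log2). PNPLA2 passed in 10 of 20 fits with 1 library left out (0.75 to 1.36 log2). The fatty acid transporter CD36 was not analysed here. Of 10 genes of fatty acid uptake and activation, 3 rose and 2 fell, median -0.24. ACSL1, which activates fatty acids for storage, rose by 2.00 ± 0.50, FABP5 by 1.39 ± 0.35 and LMF1, needed to fold LPL, by 0.47 ± 0.15, while the muscle form FABP3 fell by 2.28 ± 0.36 and SLC27A1 by 0.43 ± 0.13. LMF1 passed in 11 and SLC27A1 in 10 of 20 fits with 1 library left out (0.42 to 0.58 and -0.49 to -0.36 log2), and FABP3 was at 169 CPM for WT day 80 replicate 2 and 59.9 CPM for CF day 80 replicate 1.

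Regulators of fat cell formation were mixed: 5 of 11 rose, 1 fell, median 0.29. MLXIPL, a glucose-sensing activator of fat synthesis, rose by 3.53 ± 0.61, CEBPA, which works with PPARG, by 1.39 ± 0.38, CEBPB by 1.17 ± 0.25, KLF15 by 1.09 ± 0.18 and KLF4 by 0.76 ± 0.20 log2. CEBPA did not pass without WT day 120 replicate 1 (0.84), where it was highest at 53.3 CPM. ZNF423, a marker of committed precursors, fell by 1.18 ± 0.19. Of 11 adipose progenitor genes, 2 rose and 3 fell, median -0.62. PDGFRA, a receptor of fat precursors and fibroblasts, fell by 1.03 ± 0.15, DLK1, the preadipocyte factor that is lost as fat cells mature, by 1.28 ± 0.39 and CD34 by 0.70 ± 0.22, while PI16 rose by 1.80 ± 0.20 and F3 by 0.79 ± 0.23 log2. Some of these calls rested on single libraries, CD34 passing in 10, DLK1 in 11 and F3 in 15 of 20 fits with 1 library left out (-0.85 to -0.58, -1.55 to -0.90 and 0.67 to 1.03 log2). DLK1 was highest in CF day 80 replicate 1, the muscle-holding library, at 3854 CPM.

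Of 10 brown fat genes tested, 4 rose and 0 fell, median 0.53, or 0.37 with groups at 0 set to 3 counts. UCP1, the uncoupling protein that lets brown fat make heat, was at 0 counts in 8 of the 12 libraries up to day 100 and at most 0.481 CPM in the other 4. It was at 7.23 and 0.0721 CPM for WT and 3.54 and 0.968 CPM for CF at day 120, and at 276 and 0.663 CPM for WT and 9.91 and 151 CPM for CF at birth. Each birth library that was rich in ADIPOQ thus held far more UCP1 than its partner and than any library of day 120, while WT day 120 replicate 2 lay within the early range. UCP1 rose late against early (adjusted p = 0.0072, edgeR). Averaged over the groups on the log scale the difference was 194-fold with CF day 80 set to 3 counts, and the fitted log2 fold change ran from 6.56 to 10.13 with 1 library left out. The call was lost without WT day 120 replicate 1 and without the 4 libraries holding other tissue. CIDEA, a droplet protein of brown fat, rose by 4.35 ± 0.76, DIO2, which activates thyroid hormone, by 2.65 ± 0.35 and CPT1B, of muscle and brown fat mitochondria, by 0.88 ± 0.23 log2. PPARGC1A was at -0.21 ± 0.67 and PRDM16 at -0.14 ± 0.22, neither passing.

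**Figure D4:**
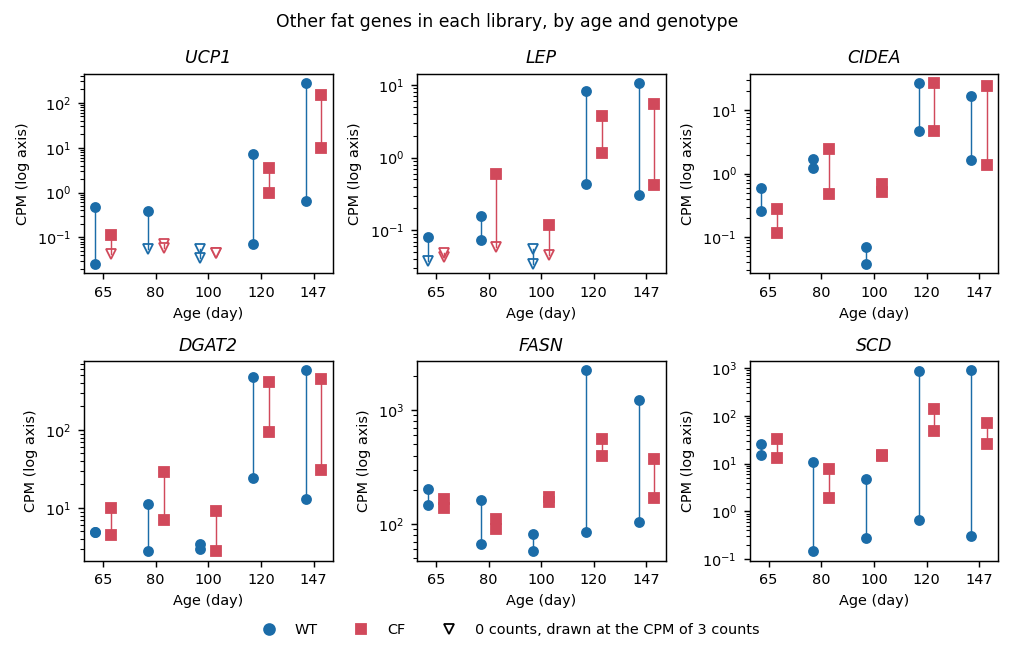
Level of 6 other genes of fat in every library, in CPM on a log axis, against age in days, drawn as for the 8 genes. UCP1 is at 0 counts in most libraries before day 120 and reaches 276 CPM at birth, and SCD in WT spans 883 to 0.309 CPM between the birth libraries.

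The genes whose pattern was most like that of the 8 were found by Pearson correlation of log2 CPM with the mean of the standardised members, over 20 libraries and among 12493 genes with a mean log2 CPM of at least 1. Among the 10 most alike were DGAT2 (r = 0.955), ELOVL6 (0.934), GPD1 (0.932), ACACA (0.923), GPAM (0.916), ACSL1 (0.906), THRSP (0.901), S100B (0.894) and ACSS2 (0.884). The values describe libraries that differ in age and tissue content, and carry no p. GPD1 makes the glycerol backbone of triglyceride, ACACA takes the first step of fatty acid synthesis, GPAM the first step of triglyceride assembly, and ACSS2 activates acetate, a main carbon source for fat in ruminants. Among the members, PLIN1 followed the mean of the other 7 most closely (r = 0.969) and PLIN4 least (0.763).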

How the data were processed

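Total RNA from 20 frozen tracheal samples was sequenced, per the labels' protocols. The deposited values are raw read counts per gene, made with STAR 2.6 and featureCounts 1.6.3 of the Subread package, per the submitters' processing notes. The genome build, annotation and strand setting were not given in the sources used here. Of the counts from 1 to 20, 70.7% to 85.3% were even in a library, so both reads of a pair may have been counted, and 3 counts may then be fewer fragments. Groups came from the labels, with 2 samples each. Replicates differed by more than counting noise in every group, with a chi-square per gene of 37.6 to 1662.

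Counts were tested with edgeR 4.0.16 in R 4.3.3 (TMM scaling, filterByExpr, quasi-likelihood, 1 coefficient per group over all 20 samples, residual degrees of freedom 10), with Benjamini-Hochberg adjustment over 20097 genes and a threshold of 0.05. The test was checked on simulated counts with known changes. CPM in the text are TMM-scaled, and the SE is the fold change divided by the root of F. Alternatives were DESeq2 1.42.0, library size alone, no filter on low counts, a replicate block, pairs of a shared identifier summed, leaving out the 4 libraries holding other tissue, leaving out each library, and the length slope as a covariate, the last added after seeing the data. Of the gene identifiers given in place of a symbol, 8432 in all, 501 were given a symbol by gene ID, and 15 older symbols were updated, from a RefSeq gene table (ARS-UI_Ramb_v3.0), from which only names were taken. The members and lists were chosen with earlier results of these data known. Named beyond the members were up to 4 genes per list and direction by adjusted p among those that passed late against early, 12 genes of fat chosen whatever they did, and the 10 genes most alike in pattern. Some of these genes are not reported here. No sequence is shown.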

Additional observations from a re-analysis of the deposited data

How the results depend on the processing

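The direction late against early held for all 8 members under every setting tried. The genes called in the 8 comparisons, in the order of the report (late against early, WT and CF birth against day 65, their difference, birth against day 120, CF against WT over the ages, at any age and at birth), were 4865, 1654, 1104, 1, 27, 154, 42 and 19. Without the 4 libraries holding other tissue they were 2781, 986, 532, 0 (640 at an unadjusted p under 0.05), 4, 49, 0 (1676) and 7, with 5 members called late against early and 0 in either genotype, where day 65 then has 1 library. With the length slope as a covariate they were 8385, 3298, 3684, 2, 368, 745, 472 and 294, with 6 members called in WT and 4 in CF. DESeq2 gave 4078 in WT, 2387 in CF, 111 for their difference, then 375, 827, 1430 and 425, with 8 members called in WT and 5 in CF. With pairs of a shared identifier summed, which leaves 1 sample at CF birth, they were 982 in WT, 134 in CF, 0 (472 unadjusted), 0 (822), 2, 0 (847) and 1, with 1 member called in WT. Library size alone gave 0 (880 unadjusted) for the difference, 48 for birth against day 120 and 12 for CF against WT at birth, and no filter on low counts 0 (984), 15 and 6. Leaving out 1 library gave 3665 to 5599, 408 to 3292, 322 to 1443, 0 to 31, 0 to 100, 51 to 319, 2 to 375 and 1 to 56 genes, and 5 to 8, 0 to 4 and 0 to 2 members in the first 3. The cause of these shifts was not tested.

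The replicate numbers did not pair the samples: over 45 pairs of groups the correlation of same-numbered deviations ran from -0.59 to 0.73, and 12 exceeded 0.1. With the replicate block, 1 member was called in WT, PPARG lost its call late against early (2.04, adjusted p = 0.052, edgeR), and 0 genes (827 unadjusted), 3, 2 and 3 were called for the difference, birth against day 120, CF against WT at any age and at birth. In CF against WT the block turned LIPE to 0.065 over the ages and CIDEC to 0.31 and PPARG to 0.37 at birth.

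None of the members' values that changed sign had passed. Without the 4 libraries ADIPOQ was at -0.91 for the difference and -0.50 in CF against WT over the ages, LIPE at 0.21 there and PLIN2 at -0.025 late against early. With pairs summed LIPE was at 0.014 in CF against WT. Library size alone gave CIDEC -0.015 and PPARG -0.027 from day 120 to birth and PLIN2 -0.018. The slope covariate gave LIPE -0.057, CIDEC -0.11 and PPARG -0.15 from day 120 to birth, LIPE 0.54 and PLIN4 0.10 in CF against WT over the ages, and PPARG 0.41 and FABP4 0.082 at birth.

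Leaving out 1 library, birth against day 65 in WT gave -1.49 to 4.42 for LIPE, -0.49 to 4.15 for PPARG and -10.29 to 7.20 for PLIN4, whose fitted extremes without WT day 147 replicate 1 depend on the prior count. The difference gave -1.99 to 5.20 for ADIPOQ, -2.95 to 3.80 for LIPE, -6.13 to 2.04 for PLIN1, -3.87 to 2.17 for CIDEC, -3.11 to 2.96 for PPARG, -2.98 to 5.03 for LPL, -4.08 to 13.82 for PLIN4 and -4.64 to 0.41 for FABP4. Birth against day 120 gave -1.92 to 2.20 for ADIPOQ, -2.09 to 1.88 for LIPE, -1.94 to 3.09 for PLIN1, -1.65 to 1.17 for CIDEC, -1.82 to 1.20 for PPARG, -3.20 to 2.26 for LPL and -7.71 to 4.42 for PLIN4. CF against WT over the ages gave -0.71 to 1.30 for ADIPOQ, -0.38 to 0.98 for LIPE and -1.39 to 2.20 for PLIN4. At birth it gave -4.04 to 3.15 for ADIPOQ, -3.18 to 3.55 for LIPE, -4.12 to 4.03 for PLIN1, -3.23 to 2.77 for CIDEC, -2.53 to 3.52 for PPARG, -3.98 to 4.02 for LPL, -4.75 to 13.13 for PLIN4 and -2.81 to 2.22 for FABP4. PLIN2 was at -0.012 to 0.20 late against early.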

Other observations

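The values here were picked after the data were seen and are given as descriptions. UCP1 per ADIPOQ, both in CPM per kb, was 0.00328 to 0.0123 in the 4 libraries of day 120 and 0.0261 to 0.363 in the 4 of birth. In the 3 early libraries with over 3 counts of both genes it was 0.218 to 0.584, from 7 to 29 UCP1 counts. These 3 were WT day 65 replicate 2, WT day 80 replicate 2 and CF day 65 replicate 2, all among the libraries holding other tissue. A high ratio was thus seen before birth only in such libraries, and the 2 CF birth libraries share an identifier. The ratio was lowest of the birth libraries in WT replicate 2, which held the least ADIPOQ of them. Leptin kept a narrower ratio, LEP per ADIPOQ being 0.00476 to 0.0103 in the 8 late libraries, and DGAT2 per ADIPOQ was 0.344 to 0.732 there.

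PPARG per CIDEC was 0.404 to 2.22 in the early libraries and 0.0545 to 0.110 in the late ones, on the same scale. At day 100, where the adipocyte genes were scarce, it was 0.0765 and 0.0717 in WT, within the late range, and 0.300 in both CF libraries. The WT values rest on 20 and 24 counts of PPARG and 25 and 32 of CIDEC, in libraries that may be 1 animal. CFD, adipsin, did not follow the adipocyte genes at WT birth: it was at 18.7 CPM in replicate 1, rich in ADIPOQ, and at 94.2 CPM in replicate 2, poor in ADIPOQ and with the lowest length slope.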
